A study of Homo sapiens with 18 samples.

Results

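GRHL1, GRHL2, GRHL3, TP63, KLF5, ELF3, EHF, TFAP2A and TFAP2C encode transcription factors of epithelial cells, and they were taken by symbol from the table of 40266 gene symbols. All 9 were present, and all 9 passed the filter of at least 1 TPM (a relative transcript level corrected for transcript length) in at least 3 of 18 libraries, which kept 16093 genes. The libraries came from 2 human pancreatic ductal adenocarcinoma (PDAC) lines: Panc1, established from a primary tumor and used as the mesenchymal-like model, and Panc89, established from a lymph node metastasis and used as the epithelial model. Each line was sequenced as untreated parental cells, as Holoclone cells and as Paraclone cells, with 3 replicates per group. Holoclone cells form the compact colonies linked to cancer stem cells (CSC), whereas Paraclone cells form the loose colonies of more differentiated non-CSC. Each Holoclone or Paraclone population was a single clone grown from a single cell, and its 3 replicates were passages of that clone. A difference between variants therefore compares single clones, and a difference between lines cannot be told apart from a difference between the patients and sites they came from.

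Grainyhead-like factors (GRHL1 to GRHL3) bind and open regulatory DNA of genes for adherens and tight junctions, and GRHL2 is known as an opponent of epithelial–mesenchymal transition (EMT). TP63 encodes p63, the p53 relative that maintains basal cells of stratified epithelia and marks squamous or basal-like programs in pancreatic cancer. KLF5 is a zinc finger factor of proliferating gut and basal epithelia, ELF3 and EHF are ETS factors restricted to epithelia, and TFAP2A and TFAP2C are AP-2 factors active in surface ectoderm, trophoblast and carcinomas.

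Replicates of a group correlated with r between 0.954 and 0.992 across the tested genes, and 12932 to 14199 genes per library reached 1 TPM. The 6 ductal epithelial markers EPCAM, CDH1, KRT7, KRT8, KRT18 and KRT19 each reached 1 TPM in at least 1 library of every group. They summed to 2603 to 6862 TPM per library, with the highest single value, 2773 TPM, in KRT7. The 5 acinar and islet markers summed to at most 1.36 TPM. The 5 leukocyte markers summed to at most 1.14 TPM in Panc1 libraries and to 0.616 to 5.96 TPM in Panc89 libraries. The 4 endothelial markers summed to 55.2 to 69.1 TPM in the parental Panc89 libraries and to at most 8.90 TPM elsewhere. PECAM1 held the highest single value, 64.7 TPM, in a parental Panc89 library. In the Panc89 Paraclone 2 of the 4 reached 1 TPM in at least 1 library. The part of these genes in the results below was not tested. TPM carry no totals, so how deeply a library was sequenced and how far counting error reaches cannot be read from them.

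The line accounted for the widest differences among the 9 genes. GRHL2, TP63 and EHF stayed under 1 TPM in all 9 Panc1 libraries and exceeded it in all 9 Panc89 libraries, KLF5, ELF3 and TFAP2C were detected in both lines with higher levels in Panc89, GRHL3 was higher in Panc1, and GRHL1 and TFAP2A differed little. In parental cells 8 of 9 genes passed the threshold of an adjusted p under 0.05 in limma (6 higher in Panc89, 2 lower), against 66.0% of all genes tested, with 27.5% higher and 38.5% lower. Among the genes called, 41.6% were higher as deposited and 51.6% after median-of-ratios scaling. The median difference of the 9 genes was 4.74 on the log2(TPM + 1) scale, compared to -0.18 over all genes. Between the Holoclones 8 of 9 genes passed (6 higher, 2 lower; background 65.8%), with a median of 5.12, and between the Paraclones 8 of 9 passed (7 higher, 1 lower; background 60.7%), with a median of 3.24. GRHL2, TP63 and EHF passed the filter only through the Panc89 libraries and so had to differ, which leaves the size of the differences and not their count to describe. GRHL3 reached 1 TPM in all 9 Panc1 libraries but in only 2 Panc89 libraries. It passed the filter only through Panc1, so its calls as lower carry the same limit. In bulk RNA, fewer expressing cells and less RNA per cell cannot be told apart.

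**Figure D1:**
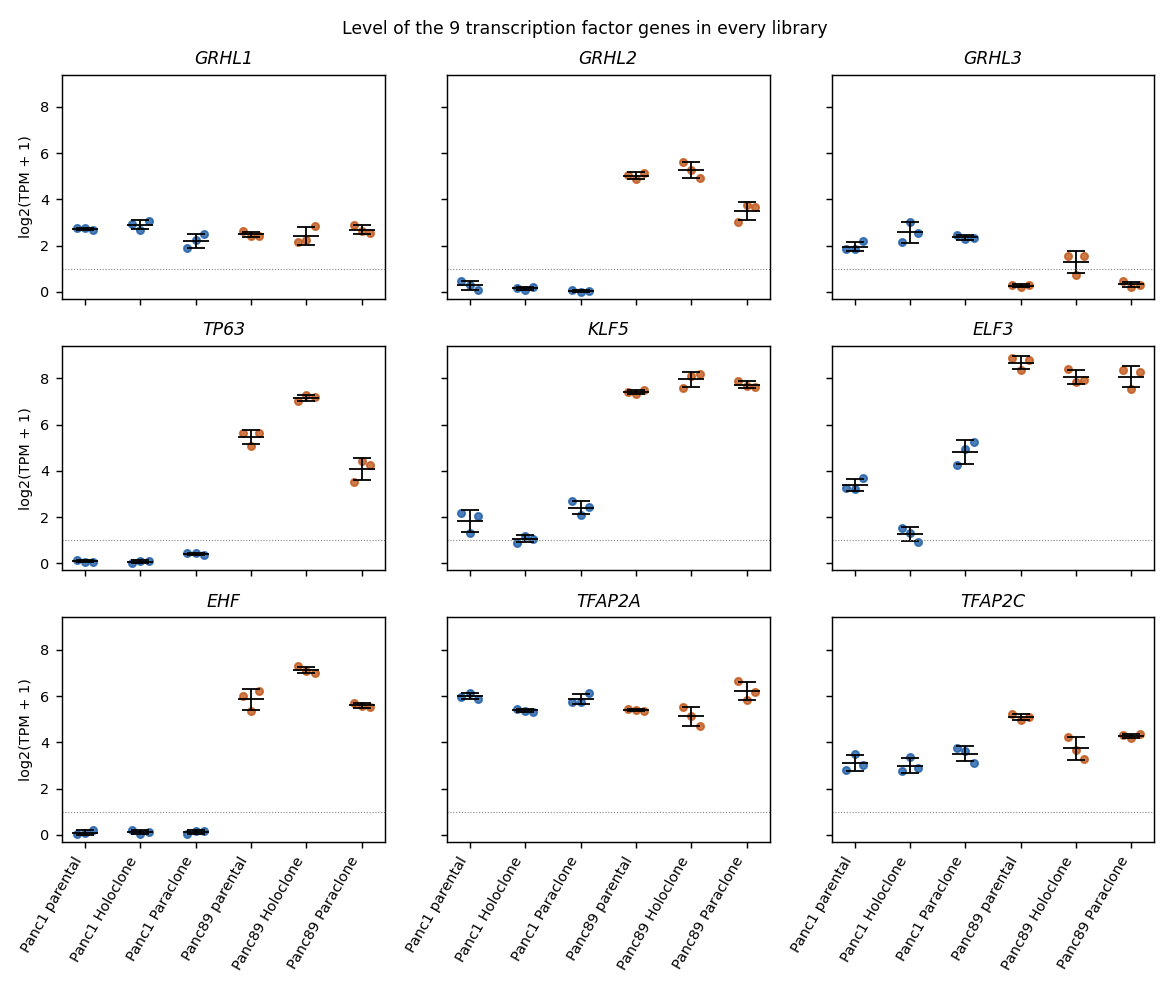
Level of each gene in every library as log2(TPM + 1), with points for the 3 replicates of a group, bars for the mean and SD (n = 3), blue for Panc1, orange for Panc89 and a dotted line at 1 TPM. GRHL2, TP63 and EHF lie below the dotted line in all 9 Panc1 libraries, and TP63 in Panc89 steps from 7.16 in the Holoclone to 5.46 in parental cells and 4.07 in the Paraclone.

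GRHL2 is encoded on the plus strand of chromosome 8 (101492439 to 101669726, GENCODE 44, GRCh38). Its replicates reached 32.3, 28.5 and 34.6 TPM in parental Panc89, 48.0, 37.4 and 29.7 TPM in the Panc89 Holoclone, and 7.18, 12.5 and 11.8 TPM in the Panc89 Paraclone. The first 2 of these groups overlapped, whereas every Paraclone library was below all of them. In Panc1 the highest value was 0.391 TPM, in a parental library, and the Paraclone libraries held 0.0525, 0.00596 and 0.0307 TPM. The difference between the parental lines was 4.74 ± 0.19 (SE) on the log2(TPM + 1) scale (limma, adjusted p = 7.91e-12), and on this scale folds of genes under 1 TPM are understated. GRHL2 passed the filter only through the Panc89 libraries, so the size of this difference and not the call is left to describe.

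GRHL3 (ENSG00000158055, plus strand, chromosome 1, 24199558 to 24364482) was higher in Panc1, the reverse of GRHL2. Panc1 held 2.62, 2.62 and 3.55 TPM in parental cells, 3.40, 7.11 and 4.90 TPM in the Holoclone, and 4.55, 3.85 and 4.03 TPM in the Paraclone. Parental Panc89 held 0.229, 0.170 and 0.241 TPM, the Panc89 Paraclone 0.369, 0.160 and 0.244 TPM, and the Panc89 Holoclone 1.95, 0.684 and 1.94 TPM. Every Panc1 library was thus above every Panc89 library, and the Panc89 Holoclone was above the other Panc89 groups. The difference of Panc89 minus Panc1 was -1.69 in parental cells (adjusted p = 7.13e-06), -1.28 in Holoclones (adjusted p = 0.000113) and -2.03 in Paraclones (adjusted p = 1.04e-06). Because GRHL3 passed the filter only through the Panc1 libraries, the size of these differences and not the calls is left to describe. The gene overlaps STPG1 on the opposite strand, at 3.22 to 16.1 TPM, and whether strand was used in quantification is not given in the sources used here.

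GRHL1 (ENSG00000134317, plus strand, chromosome 2, 9951693 to 10002277) was the most even of the 9 genes, at 2.71 to 7.33 TPM in Panc1 and 3.42 to 6.48 TPM in Panc89. Neighbouring groups in the order of its levels overlapped in all 5 steps. Parental cells of the lines were not distinguished (-0.24, 95% interval -0.64 to 0.17, adjusted p = 0.292). The Holoclone difference of -0.48 (adjusted p = 0.0383) and the Paraclone difference of 0.49 (adjusted p = 0.0361) had opposite signs and were lost under 9 and 7 of 13 alternatives, with adjusted p from 0.00382 to 0.188 and from 0.0144 to 0.169.

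Set side by side, the 3 grainyhead-like genes had a different make-up in each line. GRHL2 made up 86.8% ± 1.35 (SD, n = 3) of their summed TPM in parental Panc89, 85.9% ± 6.45 in the Panc89 Holoclone and 63.5% ± 10.7 in the Panc89 Paraclone. In Panc1 the GRHL2 share was 2.63% ± 1.94 in parental cells, 0.972% ± 0.516 in the Holoclone and 0.383% ± 0.321 in the Paraclone, with GRHL1 and GRHL3 making up the rest. The summed level was 36.7 ± 3.20 TPM in parental Panc89, 44.4 ± 8.05 TPM in its Holoclone and 16.3 ± 1.99 TPM in its Paraclone, compared to 7.86 to 11.8 TPM in the Panc1 groups.

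**Figure D2:**
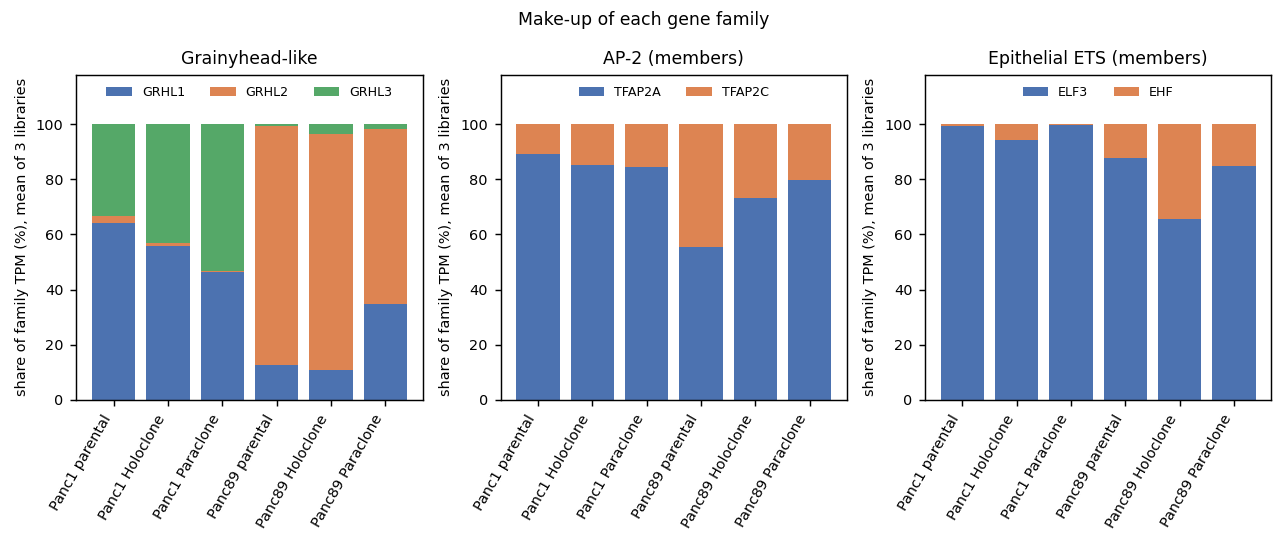
Share of summed TPM (mean of 3 libraries, in percent) held by each gene of the grainyhead-like, AP-2 and epithelial ETS members in the 6 groups. GRHL2 (orange, left) fills 63.5 to 86.8% of the grainyhead-like bars in Panc89 and at most 2.63% in Panc1; EHF (orange, right) reaches 34.3% in the Panc89 Holoclone.

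TP63 (ENSG00000073282, plus strand, chromosome 3, 189631389 to 189897276) had the clearest order of variants within Panc89. The replicates held 127, 154 and 145 TPM in the Holoclone, 48.9, 33.1 and 49.0 TPM in parental cells, and 10.4, 20.4 and 18.3 TPM in the Paraclone. These 3 groups did not overlap. In Panc1 parental and Holoclone libraries TP63 was at 0.00646 to 0.106 TPM, and in the Panc1 Paraclone at 0.368, 0.351 and 0.294 TPM. The values are summed over the gene, so the transactivating and the ΔN isoforms of p63 are not separated. The difference between lines was 5.37 ± 0.20 in parental cells (adjusted p = 2.25e-12), 7.08 ± 0.20 in Holoclones (adjusted p = 7.37e-14) and 3.65 ± 0.20 in Paraclones (adjusted p = 2.23e-10). The Holoclone value ranked 32 of 16093 genes from the highest. TP63 too passed the filter only through the Panc89 libraries, so the sizes and not the calls between lines are left to describe.

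KLF5 (ENSG00000102554, plus strand, chromosome 13, 73054976 to 73077541) was among the highly expressed members in Panc89. Parental Panc89 held 170, 160 and 177 TPM, the Holoclone 192, 273 and 287 TPM, and the Paraclone 238, 200 and 195 TPM. Holoclone and Paraclone overlapped, and both were above the parental libraries. In Panc1 KLF5 was at 3.52, 1.45 and 3.13 TPM in parental cells, 0.867, 1.30 and 1.10 TPM in the Holoclone, and 5.53, 3.32 and 4.39 TPM in the Paraclone. The line difference was 5.57 ± 0.22 in parental cells (adjusted p = 3.66e-12), 6.89 in Holoclones and 5.30 in Paraclones.

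ELF3 (ENSG00000163435, plus strand, chromosome 1, 202007945 to 202017183) had the highest mean TPM of the 9 genes in each Panc89 group, although KLF5 was above it in 2 of 3 Holoclone libraries and in 1 of 3 Paraclone libraries. The replicates held 466, 325 and 441 TPM in parental Panc89, 335, 231 and 242 TPM in the Holoclone, and 327, 187 and 313 TPM in the Paraclone, and the 3 groups overlapped. In Panc1 the groups were apart: 8.58, 8.35 and 11.9 TPM in parental cells, 1.92, 1.46 and 0.905 TPM in the Holoclone, and 18.2, 29.8 and 37.5 TPM in the Paraclone. The line difference was therefore 6.80 ± 0.27 between Holoclones (adjusted p = 4.86e-12) and 3.24 ± 0.27 between Paraclones (adjusted p = 4.03e-08), with 5.28 ± 0.27 in parental cells (adjusted p = 1.09e-10). The antisense gene ELF3-AS1 reached at most 4.02 TPM.

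EHF (ENSG00000135373, plus strand, chromosome 11, 34621093 to 34663288) did not exceed 0.174 TPM in any Panc1 library. In Panc89 it reached 63.1, 40.1 and 74.5 TPM in parental cells, 155, 135 and 127 TPM in the Holoclone, and 51.7, 46.2 and 44.7 TPM in the Paraclone. The Holoclone was above both other groups, which overlapped. The parental line difference of 5.77 ± 0.18 (adjusted p = 1.98e-13) was the highest of the 9 genes and ranked 95 of 16093 genes. As EHF passed the filter only through the Panc89 libraries, its size and not the call is left to describe. EHF made up 34.3% ± 2.66 of the summed ELF3 and EHF level in the Panc89 Holoclone, 12.4% ± 1.79 in parental Panc89 and 15.3% ± 3.96 in the Panc89 Paraclone.

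TFAP2A and TFAP2C were detected in all 18 libraries. TFAP2A (ENSG00000137203, minus strand, chromosome 6, 10393186 to 10419659) held 61.4, 70.1 and 58.4 TPM in parental Panc1, 42.7, 40.1 and 39.0 TPM in the Panc1 Holoclone, and 52.3, 53.3 and 69.1 TPM in the Panc1 Paraclone. In Panc89 it held 43.1, 41.0 and 40.3 TPM in parental cells, 45.8, 33.7 and 24.9 TPM in the Holoclone, and 98.4, 56.2 and 70.5 TPM in the Paraclone. In both lines the Holoclone libraries lay below those of the Paraclone, without overlap. The parental difference of Panc89 minus Panc1 was -0.59 (adjusted p = 0.0171), and it was lost under 3 of 13 alternatives (-0.36 and -0.43 with other scalings, -0.52 without Panc1 parental replicate 2; adjusted p from 0.00145 to 0.125 over all 13). Between Holoclones it was -0.26 (adjusted p = 0.279), and it passed without Panc89 Holoclone replicate 1 (-0.47; adjusted p from 0.0464 to 0.859). Between Paraclones it was 0.33 (adjusted p = 0.167), and it passed without Panc89 Paraclone replicate 2 (0.52; adjusted p from 0.0380 to 0.628).

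TFAP2C (ENSG00000087510, plus strand, chromosome 20, 56629306 to 56639283) was at 5.95, 10.2 and 7.13 TPM in parental Panc1, 5.80, 9.24 and 6.31 TPM in the Panc1 Holoclone, and 12.3, 11.5 and 7.74 TPM in the Panc1 Paraclone. Panc89 held 36.7, 30.4 and 33.1 TPM in parental cells, 18, 11.7 and 8.79 TPM in the Holoclone, and 18.9, 17.1 and 19.3 TPM in the Paraclone. Parental Panc89 was above all other groups without overlap, and the 3 Panc1 groups overlapped each other. The line difference was 2.00 ± 0.24 in parental cells (adjusted p = 2.39e-06). In Holoclones it was 0.74 (adjusted p = 0.0136), and this call was lost in the fit of these groups alone (0.74), without Panc1 Holoclone replicate 1 (0.62) and without Panc89 Holoclone replicate 1 (0.48), with adjusted p from 0.00269 to 0.0809 over 13 alternatives. In Paraclones it was 0.77 (adjusted p = 0.0112), and the call was lost without Panc1 Paraclone replicate 3 (0.59; adjusted p from 0.00546 to 0.0632).

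**Figure D3:**
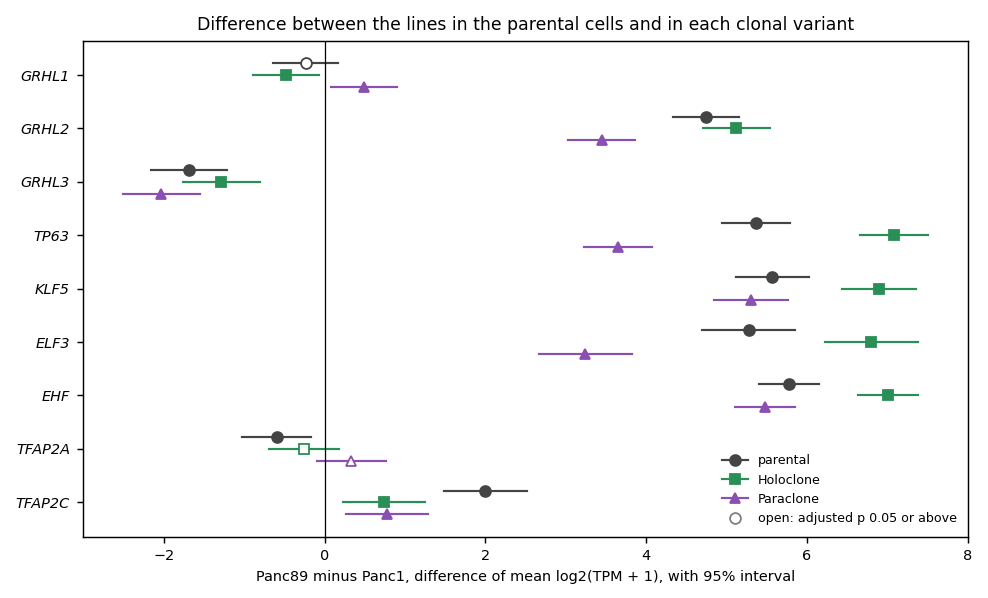
Panc89 minus Panc1 for each gene in parental cells (circles), Holoclones (squares) and Paraclones (triangles), as difference of mean log2(TPM + 1) with the unadjusted 95% interval of the limma fit; filled symbols passed an adjusted p under 0.05. All symbols of GRHL2, TP63, KLF5, ELF3 and EHF lie beyond 3, with the 3 variants of TP63 spread from 3.65 to 7.08, and GRHL3 is the gene to the left of 0 in all 3 variants that passed each time.

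TP63, KLF5, ELF3 and EHF were each higher in Panc89 in all 3 comparisons of the lines, and the reference sequence just before a start site of each is shown to place these genes. RefSeq (GRCh38.p14) gave 11 start-site windows for 7 of the 9 genes. For each of the 4 genes the window closest to the start of the GENCODE canonical transcript is printed, with the 250 bases before the start, 5′ to 3′, on the plus strand. The regions are chr3:189631139-189631388 for TP63, chr13:73058755-73059004 for KLF5, chr1:202010337-202010586 for ELF3 and chr11:34624007-34624256 for EHF, whose window lies 3164 bases from the canonical start. Capitals mark matches, on either strand, to CACCTG (an E-box bound by ZEB and SNAI repressors), AACCGGTT (grainyhead), GCCNNNGGC (AP-2) or CCGGAA (the ETS core).
TP63: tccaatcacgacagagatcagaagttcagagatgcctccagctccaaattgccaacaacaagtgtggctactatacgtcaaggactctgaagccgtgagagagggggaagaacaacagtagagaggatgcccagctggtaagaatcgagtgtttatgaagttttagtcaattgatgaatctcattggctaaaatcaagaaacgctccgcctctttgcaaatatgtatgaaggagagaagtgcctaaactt
KLF5: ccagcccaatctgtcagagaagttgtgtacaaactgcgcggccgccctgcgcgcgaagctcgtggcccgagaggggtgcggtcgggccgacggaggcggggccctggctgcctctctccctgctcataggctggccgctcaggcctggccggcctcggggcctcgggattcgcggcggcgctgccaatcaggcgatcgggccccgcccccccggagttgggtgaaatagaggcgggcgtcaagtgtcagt
ELF3: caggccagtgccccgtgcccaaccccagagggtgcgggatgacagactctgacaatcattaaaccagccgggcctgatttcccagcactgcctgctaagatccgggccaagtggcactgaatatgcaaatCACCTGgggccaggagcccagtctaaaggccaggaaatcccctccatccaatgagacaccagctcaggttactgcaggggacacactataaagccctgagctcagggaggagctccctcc
EHF: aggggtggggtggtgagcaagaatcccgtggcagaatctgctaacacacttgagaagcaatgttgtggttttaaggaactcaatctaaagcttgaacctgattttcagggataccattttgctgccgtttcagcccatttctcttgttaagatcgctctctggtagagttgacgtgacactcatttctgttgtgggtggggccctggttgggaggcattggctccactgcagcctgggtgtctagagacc
One match was found in these 4 windows, an E-box in ELF3 that begins 120 bases before the start. Over all 35116 RefSeq windows, 17.5% held CACCTG, 0.117% AACCGGTT, 19.8% GCCNNNGGC and 14.5% CCGGAA within the same 250 bases. The GC content of the printed windows was 44% in TP63, 50.0% in EHF, 58.4% in ELF3 and 70.8% in KLF5, with a median of 58.0% over all windows. The TP63 window belongs to the first start site, and other start sites of the gene were not searched.

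The question for the clonal variants was whether CSC-like and non-CSC cells of a line differ in these factors. In Panc89, TP63, GRHL2, EHF and GRHL3 were higher in the Holoclone than in the Paraclone, and TFAP2A was lower. TP63 differed by 3.09 ± 0.20 (adjusted p = 1.39e-08), a ratio of mean TPM of 8.68, which ranked 90 of 16093 genes from the highest. GRHL2 differed by 1.79 ± 0.19 (adjusted p = 4.22e-06), EHF by 1.53 ± 0.18 (adjusted p = 7.04e-06) and GRHL3 by 0.96 ± 0.22 (adjusted p = 0.00341), the last at levels of at most 1.95 TPM. TFAP2A differed by -1.09 ± 0.20 (adjusted p = 0.000606). In all, 5 of 9 genes passed (4 higher, 1 lower), against 35.7% of all genes (22.4% higher, 13.3% lower), and all 5 kept an adjusted p under 0.05 under each alternative. Of the genes called between these clones, 62.8% were higher as deposited and 49.1% after median-of-ratios scaling.

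The other 4 genes did not pass in Panc89. ELF3 differed by -0.01 (95% interval -0.58 to 0.57), KLF5 by 0.23 (-0.22 to 0.69), GRHL1 by -0.28 (-0.69 to 0.13) and TFAP2C by -0.54 (-1.06 to -0.03, adjusted p = 0.093). TFAP2C passed with both other scalings (-0.68 and -0.65) and without Panc89 Holoclone replicate 1 (-0.80), with adjusted p from 0.0138 to 0.352 over 13 alternatives.

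In Panc1 a different gene stood out. ELF3 was lower in the Holoclone than in the Paraclone, with a difference of -3.57 ± 0.27 (adjusted p = 7.89e-08), a mean of 1.43 against 28.5 TPM, and it ranked 42 of 16093 genes from the lowest. KLF5 differed by -1.36 ± 0.22 (adjusted p = 0.000148), and GRHL1 by 0.69 ± 0.19 (adjusted p = 0.00991). The GRHL1 call was lost with both other scalings (0.45 and 0.48) and without Panc1 Paraclone replicate 1 (0.53), with adjusted p from 0.00567 to 0.114 over 13 alternatives. In all, 3 of 9 genes passed (1 higher, 2 lower), near the 37.3% of all genes (27.4% higher, 9.97% lower).

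TFAP2A was lower in the Panc1 Holoclone without overlap of the groups but missed the threshold (-0.50, adjusted p = 0.0651), and it passed with both other scalings (-0.78 and -0.74) and in the fit of these groups alone (adjusted p from 0.00676 to 0.231). TP63 was under 0.37 TPM in these libraries, at -0.34 (adjusted p = 0.199), and passed with a pseudocount of 0.1 (-1.53) and in the fit of these groups alone (adjusted p from 0.00047 to 0.344). GRHL2 and EHF were near 0 in both clones, GRHL3 differed by 0.21 (95% interval -0.27 to 0.69), and TFAP2C by -0.51 (-1.02 to 0.01), passing only with the other scalings (-0.76 and -0.73; adjusted p from 0.0177 to 0.305). As deposited, the median gene differed by 0.19 between these clones, and by 0.00 after median-of-ratios scaling, and the share of higher genes among those called went from 73.3% to 46.8%.

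**Figure D4:**
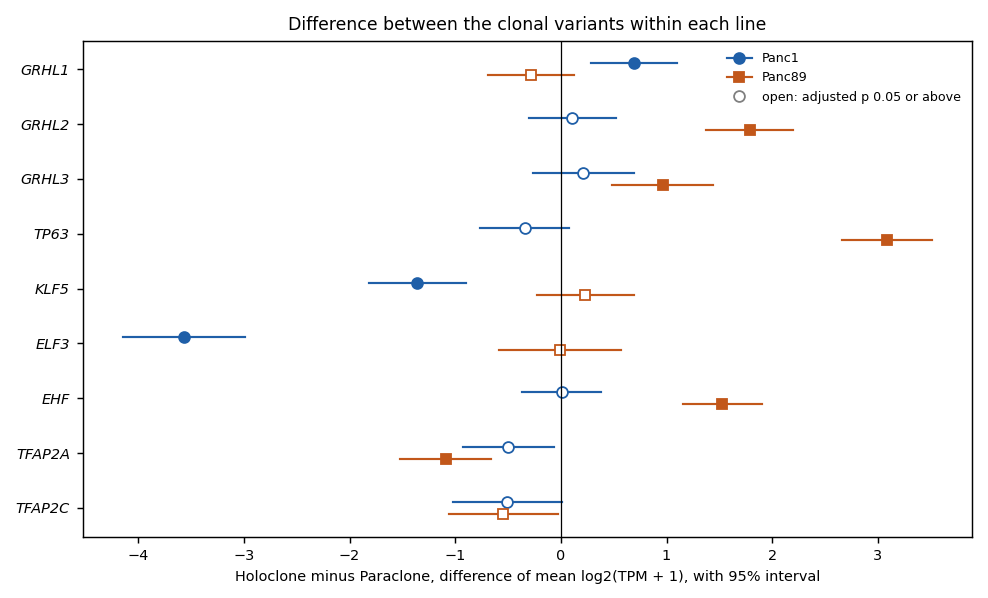
Holoclone minus Paraclone for each gene in Panc1 (blue circles) and Panc89 (orange squares), as difference of mean log2(TPM + 1) with the unadjusted 95% interval of the limma fit; filled symbols passed an adjusted p under 0.05. TP63 lies at 3.09 in Panc89 and at -0.34 (open symbol) in Panc1, and ELF3 at -3.57 in Panc1 and at -0.01 in Panc89.

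The interaction term of the same fit, which compares the change between clones in Panc89 with that in Panc1, passed for 35.1% of all genes and for 6 of 9 genes (5 with a higher value in Panc89, 1 with a lower one). For 3 of the 6, GRHL2, TP63 and EHF, no Panc1 library reached 1 TPM, so that log2(TPM + 1) held the Panc1 change near 0, the interaction mostly restates the Panc89 change, and their count describes nothing further. Of the other 6 genes, ELF3, KLF5 and GRHL1 passed. The difference of the changes, Panc89 minus Panc1, was 3.56 ± 0.38 for ELF3 (adjusted p = 4.00e-06), 3.43 ± 0.28 for TP63 (adjusted p = 2.37e-07) and 1.59 ± 0.30 for KLF5 (adjusted p = 0.0008). It was 1.68 for GRHL2, 1.52 for EHF and -0.97 for GRHL1. GRHL3 (0.75, adjusted p = 0.0804), TFAP2A (-0.59, adjusted p = 0.125) and TFAP2C (-0.04, 95% interval -0.76 to 0.69) did not pass. GRHL3 passed under 5 of 19 alternatives (adjusted p from 0.0109 to 0.205). TFAP2A passed under 2 of 19, without Panc89 Holoclone replicate 1 (-0.80) and without Panc89 Paraclone replicate 2 (-0.78), with adjusted p from 0.0258 to 0.303.

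Compared to parental Panc89, the Holoclone had more TP63 (1.70 ± 0.20, adjusted p = 1.42e-05), EHF (1.26 ± 0.18, adjusted p = 7.55e-05) and GRHL3 (1.01 ± 0.22, adjusted p = 0.0036), and less TFAP2C (-1.37 ± 0.24, adjusted p = 0.000594). These 4 of 9 genes stood against 24.7% of all genes. The Panc89 Paraclone had less GRHL2 (-1.55 ± 0.19, adjusted p = 4.61e-05), TP63 (-1.39 ± 0.20, adjusted p = 0.000144) and TFAP2C (-0.82 ± 0.24, adjusted p = 0.0244), and more TFAP2A (0.80 ± 0.20, adjusted p = 0.0105), which again was 4 of 9 genes, against 19.4%. The TFAP2C call was lost in 5 of 6 fits that left out 1 library (-0.76 to -0.85) and the TFAP2A call without Panc89 Paraclone replicate 1 (0.59) and in the fit of these groups alone, with adjusted p from 0.00933 to 0.092 and from 0.00252 to 0.0622. EHF, at -0.27 in the Paraclone, passed without Panc89 parental replicate 2 (-0.52), and KLF5, at 0.55 in the Holoclone, without Panc89 Holoclone replicate 1 (0.73). Both comparisons share the parental libraries.

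Compared to parental Panc1, the Holoclone had less ELF3 (-2.13 ± 0.27, adjusted p = 9.1e-05) and KLF5 (-0.78 ± 0.22, adjusted p = 0.0283), 2 of 9 genes against 10.9% of all genes. The KLF5 call was lost in the fit of these groups alone and without Panc1 parental replicate 1 (-0.61) or 3 (-0.68) or Panc1 Holoclone replicate 1 (-0.70) or 3 (-0.79), with adjusted p from 0.00248 to 0.135. TFAP2A (-0.62, adjusted p = 0.0617) passed under 3 alternatives (-0.62 to -0.68; adjusted p from 0.0184 to 0.178) and GRHL3 (0.61, adjusted p = 0.104) without Panc1 Holoclone replicate 1 (0.83; adjusted p from 0.0357 to 0.352). The Panc1 Paraclone had more ELF3 (1.43 ± 0.27, adjusted p = 0.00107), 1 of 9 genes against 28.6%, and the same parental libraries served as reference. ELF3 thus passed in all 3 comparisons within Panc1 and in none of the 3 within Panc89, of which the difference between lines was tested for the clones against each other. KLF5 (0.58, adjusted p = 0.0564) and GRHL1 (-0.52, adjusted p = 0.0556) in the Paraclone were close to the threshold, and KLF5 passed under 4 of 13 alternatives (0.72 to 0.76; adjusted p from 0.0277 to 0.263) and GRHL1 without Panc1 Paraclone replicate 3 (-0.67; adjusted p from 0.0293 to 0.323). With a pseudocount of 0.1, which widens differences under 1 TPM, TP63 (1.42) and GRHL2 (-1.21) also passed in this comparison.

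Relatives of these factors from the same families were listed beside them. TP73, a relative of TP63, was higher in the Holoclone of both lines (1.34 and 1.12) at means of at most 2.28 TPM. Of the 12 tested KLF relatives, 5 were higher and 3 lower in parental Panc89, 8 of 12 and so near the 66.0% of all genes called, and KLF4, a factor of differentiated epithelium, was highest at 3.99 ± 0.33 (adjusted p = 3.36e-08). KLF4 moved in opposite directions between the clones, by 1.87 in Panc89 and by -1.77 in Panc1, with an interaction of 3.64 (adjusted p = 2.45e-05). Of 4 tested ETS relatives, 3 were higher and 1, ELF4 (-1.20), lower in parental Panc89, against 27.5% higher and 38.5% lower of all genes. Between the Panc89 clones 0 were higher and 2 lower in the Holoclone, against 22.4% and 13.3% of all genes. SPDEF, a factor of goblet cells, was 3.90 higher in parental Panc89 (adjusted p = 8.35e-08) and lower in the Panc89 Holoclone than in the Paraclone (-1.64). The 3 grainyhead relatives TFCP2L1 (1.01), UBP1 (0.63) and TFCP2 (0.46) were higher in the Panc1 Holoclone than in its Paraclone. With the deposited scaling, so were 27.4% of all genes. Of the AP-2 relatives, only TFAP2E was tested, at -0.87 between the parental lines. A relative under 1 TPM in all libraries of 1 line could pass the filter only through the other, so its call between the lines was not open. How many relatives this covers is not reported here.

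Of 16 epithelial genes linked to grainyhead-like factors from general knowledge, 15 were tested, and 14 were higher and 1 lower in parental Panc89, against 27.5% higher and 38.5% lower of all genes, with a median difference of 4.25 compared to -0.18 over all genes. A listed gene under 1 TPM in all Panc1 libraries could pass the filter only through Panc89, so its call as higher was not open. How many listed genes this covers is not reported here. RAB25, a vesicle transport GTPase, was highest at 7.52 ± 0.12 (206 against 0.122 TPM), followed by ST14, the protease matriptase, at 6.50 ± 0.19, whereas CLDN3, a claudin, stood at -2.76 ± 0.27. Between the Panc89 clones, where GRHL2 was higher in the Holoclone, 3 of the 15 were higher and 7 lower in the Holoclone, against 22.4% higher and 13.3% lower of all genes, with a median of -0.57 compared to 0.09. The 3 higher genes were thus near the share over all genes. The splicing regulators ESRP1 (1.27 ± 0.25) and ESRP2 (0.81 ± 0.17) were higher, and OVOL2, a repressor of ZEB1 (-1.91 ± 0.16), and TGM1, a transglutaminase of the cornified envelope (-1.71 ± 0.18), were lower. In Panc1 7 were higher and 2 lower in the Holoclone, against 27.4% and 9.97% of all genes with the deposited scaling. The median was 0.47 compared to 0.19. EPCAM, an epithelial adhesion gene (3.48 ± 0.15, 29.2 against 1.73 TPM), and ESRP2 (2.57 ± 0.17) were highest, with CLDN7 (-1.43) and CDH1, E-cadherin (-0.95), lower.

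Of 21 basal genes linked to p63, 20 were tested, and 16 were higher and 2 lower in parental Panc89, against 27.5% higher and 38.5% lower of all genes, with a median of 1.94 compared to -0.18. The limit that the filter sets on the grainyhead-linked counts between the lines applies to this list too. The keratin KRT6A (7.50 ± 0.22) and TRIM29 (6.49 ± 0.14) were highest, and KRT6A shares sequence with close keratin copies, so its level is uncertain. Between the Panc89 clones, where TP63 was higher in the Holoclone, 11 of the 20 were higher and 3 lower in the Holoclone, against 22.4% higher and 13.3% lower of all genes, with a median of 0.81 compared to 0.09. The receptors FGFR2 (2.83 ± 0.16, 6.46 against 0.0387 TPM) and FGFR3 (2.67 ± 0.37, 56.8 against 7.49 TPM) were highest. LAMA3, a laminin chain of the basement membrane (-2.13 ± 0.27), and KRT14 (-1.45 ± 0.28) were lowest. A gene of either list that reached 1 TPM in only 1 group could pass the filter only through that group, so its call between clones was not open. How many genes this covers, and whether FGFR2 is among them, is not reported here. In Panc1, where TP63 was near 0, 5 were higher, near the 27.4% of all genes, and 5 lower, against 9.97%. The median was 0.01 compared to 0.19. Both shares are as deposited, where 73.3% of genes called between these clones were higher, against 46.8% after median-of-ratios scaling. PERP, a desmosome gene (2.09), and JAG2, a Notch ligand (1.48), were highest, and LAMB3, a laminin chain (-2.22), and ITGB4, the integrin subunit of hemidesmosomes (-2.12), lowest.

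**Figure D5:**
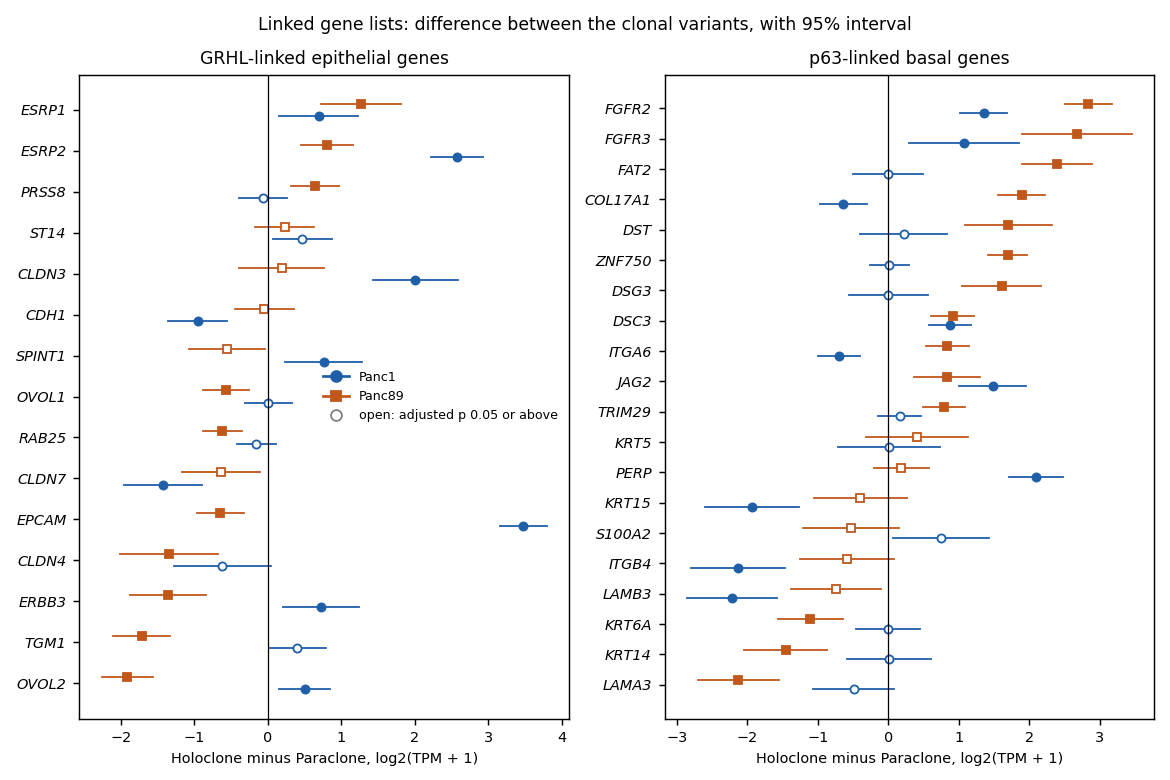
Holoclone minus Paraclone for the tested genes linked to grainyhead-like factors (left, 15 genes) and to p63 (right, 20 genes) in Panc1 (blue circles) and Panc89 (orange squares), as difference of mean log2(TPM + 1) with the unadjusted 95% interval; filled symbols passed an adjusted p under 0.05. FGFR2 and FGFR3 top the right panel at 2.83 and 2.67 in Panc89, and OVOL2 lies at the foot of the left panel at -1.91 in Panc89.

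Of 5 tested EMT transcription factors, 3 were higher and 1 lower in parental Panc89 (27.5% and 38.5% of all genes), with a median of 0.77. SNAI2 (3.32, adjusted p = 1.23e-10), SNAI1 (1.24) and TWIST2 (0.77) were higher, ZEB1 was lower (-4.11, adjusted p = 1.60e-09), and ZEB2 stood at 0.18. The limit that the filter sets on calls between the lines applies to these factors too. Between the Panc89 clones 1 was higher in the Holoclone and 3 were lower (22.4% and 13.3% of all genes), with SNAI2 at 0.79, ZEB1 at -0.95, ZEB2 at -0.96 and SNAI1 at -2.50 (adjusted p = 4.71e-08).

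Genes with the most similar profile were named by the root mean square difference of the 6 group means, each gene centred on its own mean, which describes these 6 groups only. For TP63 they were ATP2C2 (0.24), SLC1A3 (0.34) and TPRG1 (0.35). TPRG1 lies 306.1 kb before TP63 on the same strand of chromosome 3, and its means were 162, 45.4 and 8.46 TPM in the Panc89 Holoclone, parental cells and Paraclone. For EHF they included COL17A1 (0.24) and SOHLH2 (0.24), and COL17A1, a collagen of hemidesmosomes, was among the listed p63-linked genes. For GRHL2 they were LINC01667 (0.21), ANXA8L1 (0.24) and MUC20 (0.30), and for ELF3 IFI44 (0.26), an interferon-induced gene, CBLC (0.61) and ARHGDIB (0.67). IFI44 had the same order of the 6 groups as ELF3, with 0.829, 3.44 and 13.5 TPM in the Panc1 Holoclone, parental cells and Paraclone. For KLF5 the nearest was SLCO1B3 (0.39), for GRHL3 PLS3 (0.07), for TFAP2A RNASEK (0.07) and for TFAP2C SIK1 (0.12), and the group means of GRHL1 spanned less than 1, so none was named.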

How the data were processed

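RNA of 18 libraries (2 PDAC lines as parental, Holoclone and Paraclone cells, 3 passages each) was prepared with a stranded mRNA kit, sequenced as paired-end reads and quantified by the authors with kallisto 0.46.1 against the Ensembl transcriptome of GRCh38, with transcripts summarized per gene by tximport. The deposited values are log2(TPM + 1) per gene symbol and library, and raised back from log2 they sum to 985339 to 988066 TPM per library. TPM hold no read counts, so the study's DESeq2 tests could not be repeated, the depth is unknown and p-values measure the spread between passages.

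From these values, limma 3.58.1 in R 4.3.3 (lmFit, eBayes with trend) was fitted with 6 group means and 1 shared spread to 16093 genes (filter: 1 TPM or more in 3 or more libraries). The p-values are two-sided, were adjusted over all genes tested by Benjamini-Hochberg and are called under 0.05. The 10 comparisons were the lines within each variant, the variants within each line, and the interaction. The script was tested on simulated data. Alternatives were a pseudocount of 0.1, no filter and a stricter one (9 libraries), median-of-ratios and upper quartile scaling, a fit of the compared groups alone, a replicate block (sum-to-zero terms for the replicate number within each line), leaving out each library, and a log2 fold change over 1.

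The 9 genes and the gene lists were chosen with earlier results of these data known. All 9 genes are named throughout, of each list at most the 2 highest and 2 lowest called genes per comparison (any gene in families of 6 or fewer), and the 3 genes nearest in profile, or the first of them. Positions are from GENCODE 44 and promoter windows from RefSeq, both on GRCh38. No sequence is printed for GRHL2 or TFAP2C. Some genes of the lists and of the nearest profiles are not reported here.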

Additional observations from a re-analysis of the deposited data

Results flagged for a closer look

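The Holoclone minus Paraclone change differed between Panc89 and Panc1 for 6 of the 9 genes in the interaction term of the limma fit, each with 3 libraries per group. The same term passed for 35.1% of all genes tested. For ELF3 the difference of the changes was 3.56 (adjusted p = 4.00e-06), from a change of -3.57 in Panc1 and -0.01 in Panc89. For TP63 it was 3.43 (adjusted p = 2.37e-07), from -0.34 in Panc1 and 3.09 in Panc89. KLF5 gave 1.59 (adjusted p = 0.0008), from -1.36 and 0.23. GRHL2 gave 1.68 (adjusted p = 0.000231) and EHF 1.52 (adjusted p = 0.000217). GRHL2, TP63 and EHF were under 1 TPM in all Panc1 libraries, which holds their Panc1 change near 0 on this scale, so their values mostly restate the Panc89 change. GRHL1 gave -0.97 (adjusted p = 0.0113), from 0.69 in Panc1 and -0.28 in Panc89. The GRHL2 call was lost with a pseudocount of 0.1 (1.19), with adjusted p from 0.000111 to 0.0893 over 19 alternatives, and the other 5 calls were kept in all 19. Groups of 3 libraries are too small for a test of single outlying libraries.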

How the results depend on the processing

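Of 1224 member values recomputed under the alternatives, 1121 kept their direction and side of the threshold, 34 passed it newly, 39 lost it and 30 changed sign. The number of the 9 genes that passed moved by 1.5 times or less in the other cases and by more in these. Holoclone minus Paraclone in Panc1 gave 5 in the fit of these groups alone, where 6078 of all 16093 genes passed, against 6006 as reported. Panc1 Holoclone minus parental gave 1 with a log2 fold change over 1 and 1 to 2 without single libraries. Over all genes these settings gave 516 and 1061 to 1571, against 1759 as reported. Panc1 Paraclone minus parental gave 3 with a pseudocount of 0.1, 2 with median-of-ratios or upper quartile scaling or the groups alone, and 1 to 2 without single libraries. Over all genes it gave 4567 with the pseudocount, 3801 with either scaling and 3711 with the groups alone. Without single libraries it gave 3140 to 4323 over all genes, against 4599 as reported. Panc89 Paraclone minus parental gave 2 with a log2 fold change over 1 and 2 to 5 without single libraries, the lowest without Panc89 Paraclone replicate 1. Over all genes these settings gave 1184 and 2116 to 4249, against 3120 as reported. Without Panc89 Paraclone replicate 1 the count over all genes was 2206.

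Values that changed sign were near 0, and none passed the threshold as reported or after the change. With median-of-ratios scaling GRHL3 (-0.018) and EHF (-0.016) turned in Panc1 Holoclone minus Paraclone, TFAP2A (0.12) in Panc1 Paraclone minus parental and TFAP2C (0.077) in the interaction. With upper quartile scaling the values were -0.014 for EHF, 0.061 for TFAP2A and 0.078 for TFAP2C in the same comparisons.
Without single libraries GRHL3 ranged from -0.011 to 0.43 and EHF from -0.047 to 0.057 between the Panc1 clones, and ELF3 from -0.27 to 0.14 between the Panc89 clones. Against parental Panc1, TP63 ranged from -0.031 to 0.020, EHF from -0.028 to 0.083 and TFAP2C from -0.28 to 0.086 in the Holoclone, and EHF from -0.021 to 0.075 in the Paraclone. Against parental Panc89, GRHL1 ranged from -0.28 to 0.071 in the Holoclone and GRHL3 from -0.014 to 0.11 in the Paraclone, and TFAP2C in the interaction from -0.29 to 0.18.

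Same-numbered replicates did not deviate together (r from -0.318 to 0.190 over 18 pairs). The labels do not say whether they were handled together, and these correlations cannot show it. With the replicate block the number of genes that passed was 8 in parental cells, 7 in Holoclones and 7 in Paraclones between the lines, 4 and 5 between the clones of Panc1 and Panc89, and 6 in the interaction. GRHL1 lost its calls between the Holoclones and between the Paraclones, and TFAP2A passed between the Panc1 clones.

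Median-of-ratios scaling moved the median over all genes from 0.19 to 0.00 between the Panc1 clones and the share of higher calls from 73.3% to 46.8%. Between the parental lines that share went from 41.6% to 51.6%. With upper quartile scaling the share was 51.3% between the Panc1 clones and 48.3% between the parental lines. Over all genes, 5746 passed between the Panc89 clones and 3377 in the fit of these groups alone. Between the Panc1 Holoclone and parental cells 1759 passed, and 1061 without Panc1 Holoclone replicate 3. With a log2 fold change over 1 the counts fell to 516 to 6020 of 1759 to 10623.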
